A study of Homo sapiens with 36 samples.

Results

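Transcripts of the cytosolic heat shock proteins and of the TRiC chaperonin were followed in 2 cancer cell lines given 6-thio-dG, alone or on top of a targeted drug. The genes were chosen by symbol from a list of 42: heat shock transcription factors, HSP70 and HSP90 proteins, small heat shock proteins, J-domain proteins, BAG proteins, co-chaperones and the 8 subunits of TRiC. Of these, 41 had a row in the authors' deposited table of 11828 genes, and CRYAB was not analysed here. The choice went by symbol, with earlier results of these data known.

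A375 comes from a melanoma with mutant BRAF, and HCC827 from an adenocarcinoma of the lung with mutant EGFR. Each line was kept for 3 days under 6-thio-dG plus a targeted drug (called the combination), 6-thio-dG alone, the targeted drug alone, or control conditions, with 2 libraries per group. The targeted drug was PLX4720, a BRAF inhibitor, in A375 and osimertinib, an EGFR inhibitor, in HCC827. 6-thio-dG is a thiolated deoxyguanosine analog that telomerase builds into chromosome ends. The table compares the combination with the targeted drug and 6-thio-dG alone with control in each line, so the first pair of comparisons asks what 6-thio-dG added to cells that had a targeted drug in both arms. Each line stands for 1 tumour, and nothing in the labels says whether the 2 libraries of a group came from separate cultures, so p-values measure only the spread between these libraries. The table's header writes the targeted-drug arm as "TKI1", which could mean the group or its first library alone. If it was 1 library, the values with the combination rest on that library, and their p-values hold no spread of the targeted-drug arm.

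The table holds 0 columns of values per library. Levels, replicate spread and depth are therefore unknown, and every log2 fold change and adjusted p of a single gene is copied from the authors' deposited table. The error after ± is the standard error that a fold change and its p-value imply. A gene is said to have risen or fallen where the authors' adjusted p was under 0.05. Of 9 melanocytic markers 3 had a row, and of 9 lung epithelial markers 8, but without levels the identity of the lines could not be checked. In bulk RNA, fewer cells of one state and less RNA per cell cannot be told apart.

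Chaperones keep proteins folded. HSP70 binds unfolded stretches and is loaded by J-domain proteins and emptied by nucleotide exchange factors such as the BAG proteins. HSP90 takes over later folding steps of kinases, hormone receptors and the telomerase protein with the help of co-chaperones. TRiC is a ring of 8 different subunits that encloses actin, tubulin and other proteins while they fold. Under proteotoxic stress, heat shock factor 1 (HSF1) binds heat shock elements, inverted repeats of the unit GAA, and raises the inducible chaperone genes.

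Promoter sequences are given for 5 genes because their heat shock elements show how far the genes differ in the letters that HSF1 is known to bind. All 5 hold at least 1 match of the element described below, against 11 of the 34 promoters read. They therefore do not stand for the other genes of their roles. HSPA1A is the textbook inducible HSP70, HSPA8 the constitutive one, DNAJA1 a J-domain protein, CHORDC1 an HSP90 co-chaperone and TCP1 the first TRiC subunit. Each stretch runs from 250 bases before to 50 bases after 1 start of the gene in RefSeq (GRCh38.p14), 5′ to 3′ on the strand of the gene. Capitals mark every match of the 2-unit element, GAANNTTC or TTCNNGAA, each of which is its own reverse complement. Matches that overlap one another merge into longer runs.
HSPA1A, chr6:31815293-31815592, plus strand: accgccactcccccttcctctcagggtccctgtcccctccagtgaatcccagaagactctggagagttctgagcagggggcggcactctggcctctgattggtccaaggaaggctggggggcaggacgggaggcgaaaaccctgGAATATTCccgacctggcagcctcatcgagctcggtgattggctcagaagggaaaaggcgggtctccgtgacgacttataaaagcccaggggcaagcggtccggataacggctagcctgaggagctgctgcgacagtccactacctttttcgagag
HSPA8, chr11:123062087-123062386, minus strand: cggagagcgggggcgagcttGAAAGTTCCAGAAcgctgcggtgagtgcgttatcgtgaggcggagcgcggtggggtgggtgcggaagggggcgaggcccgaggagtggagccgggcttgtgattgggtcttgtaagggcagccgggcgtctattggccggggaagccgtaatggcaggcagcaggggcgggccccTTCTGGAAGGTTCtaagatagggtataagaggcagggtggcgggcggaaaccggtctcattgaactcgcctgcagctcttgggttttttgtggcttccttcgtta
DNAJA1, chr9:33025023-33025322, plus strand: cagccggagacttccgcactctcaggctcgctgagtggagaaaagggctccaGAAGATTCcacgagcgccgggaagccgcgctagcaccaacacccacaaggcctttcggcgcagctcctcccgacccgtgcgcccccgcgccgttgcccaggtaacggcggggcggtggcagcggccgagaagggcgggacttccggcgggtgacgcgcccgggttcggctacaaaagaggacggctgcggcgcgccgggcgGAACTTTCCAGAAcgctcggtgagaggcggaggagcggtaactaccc
CHORDC1, chr11:90223000-90223299, minus strand: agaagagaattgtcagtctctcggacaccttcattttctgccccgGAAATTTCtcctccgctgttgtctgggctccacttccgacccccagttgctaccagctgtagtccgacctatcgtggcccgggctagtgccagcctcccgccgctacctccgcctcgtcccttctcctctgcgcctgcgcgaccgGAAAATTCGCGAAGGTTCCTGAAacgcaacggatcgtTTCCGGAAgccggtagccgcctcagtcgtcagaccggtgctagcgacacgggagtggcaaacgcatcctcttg
TCP1, chr6:159789553-159789852, minus strand: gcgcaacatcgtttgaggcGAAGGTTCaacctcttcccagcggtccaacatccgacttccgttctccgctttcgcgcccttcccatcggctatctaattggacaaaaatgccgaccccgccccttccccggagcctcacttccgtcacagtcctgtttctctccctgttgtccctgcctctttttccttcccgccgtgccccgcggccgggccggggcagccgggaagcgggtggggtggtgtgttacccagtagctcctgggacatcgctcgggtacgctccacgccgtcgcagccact
A promoter was found for 34 of the 41 genes. The 2-unit element occurred in 11 of them (32.4%), against 13.5% of all 35116 promoters in RefSeq and 9.86% of the 9581 promoters that belong to genes of the table. A 3-unit element, in which another unit follows after 2 bases, occurred in 4 (11.8%): HSPA8, DNAJA1, DNAJB6 and CHORDC1. It occurred in 0.49% of all promoters and 0.261% of those of the table's genes. Among the printed stretches CHORDC1 held 6 overlapping or separate matches of the 2-unit element, HSPA8 4, DNAJA1 3, and HSPA1A and TCP1 1 each. A CCAAT box (CCAAT or ATTGG) was present in 11 promoters (32.4%), close to the 34.6% of all promoters. A match is a run of letters and does not show that HSF1 binds there.

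The 4 comparisons differed widely. With the combination in A375, 36 of the 41 genes rose and 2 fell, with a median log2 fold change of 0.83, against 0.06 over all genes, of which 31.2% rose and 29.3% fell. With the combination in HCC827, 12 rose and 5 fell, with a median of 0.01, where 17.3% of all genes rose and 17.9% fell. With 6-thio-dG alone in A375, 8 rose and 23 fell, with a median of -0.32, where 31.3% of all genes rose and 33.7% fell. With 6-thio-dG alone in HCC827, 24 rose and 1 fell, with a median of 0.61, where 14.8% of all genes rose and 14.4% fell. The chaperone genes rose more often than the table's genes in A375 under the combination and in HCC827 under 6-thio-dG alone, and fell more often in A375 under 6-thio-dG alone. That excess of falls was not seen when a 2-fold minimum was also asked for. With the combination in HCC827, 29.3% of the chaperone genes rose, against 17.3% of all genes, but most of those calls were lost with the GC trend removed. The same shares of all genes stand beside the counts by role below.

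**Figure D1:**
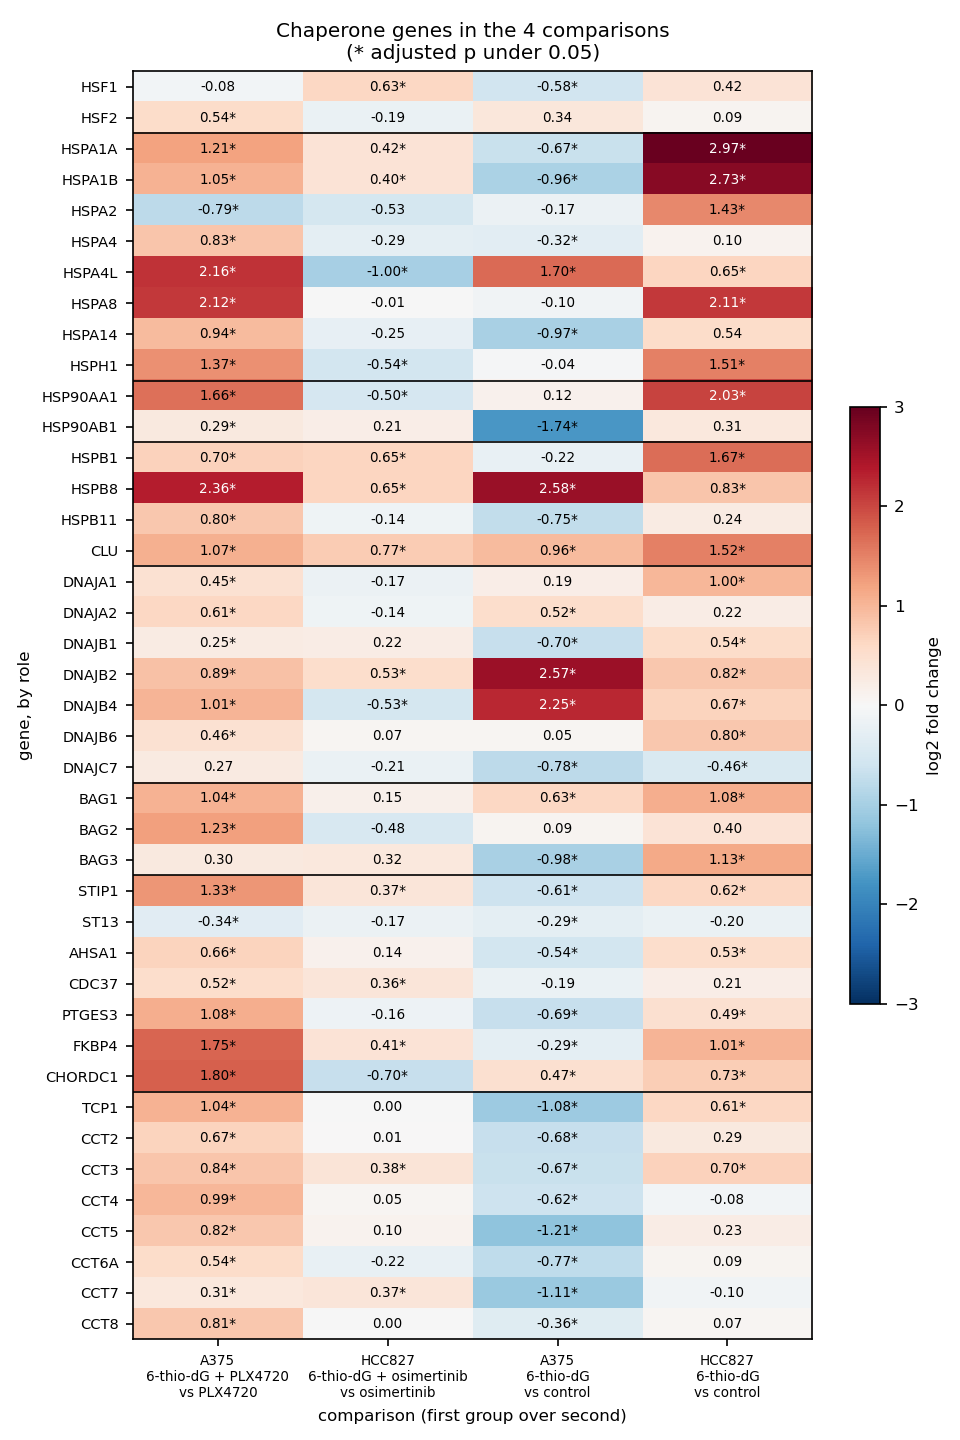
Log2 fold change of the 41 genes (rows, grouped by role) in the 4 comparisons (columns). Asterisks mark an adjusted p under 0.05. The first column holds 36 rises, the third 23 falls and the fourth 24 rises.

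**Figure D2:**
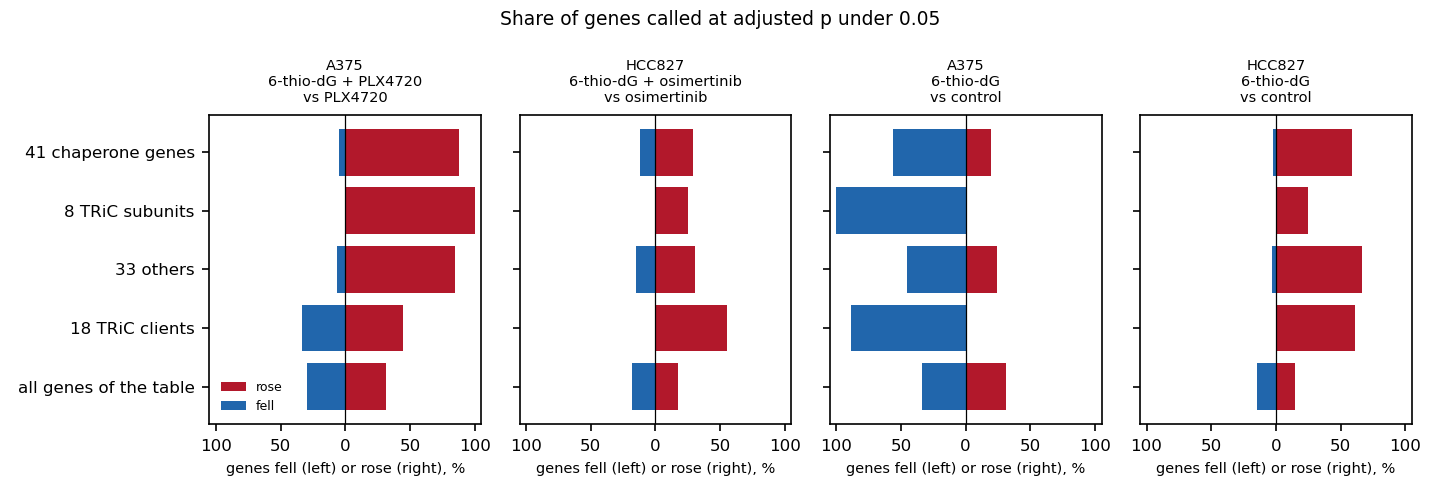
Percentage of genes that rose (right of 0) or fell (left of 0) at an adjusted p under 0.05, for the 41 chaperone genes, the 8 TRiC subunits, the 33 other chaperone genes, 18 TRiC clients and all 11828 genes. TRiC subunits all rose in A375 under the combination and all fell in A375 under 6-thio-dG alone.

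Transcript GC content moved with the fold changes and touches one comparison above the others. Across the 11514 genes with a transcript of the same symbol (97.3%), Spearman's rho between GC content and log2 fold change was 0.75 for the combination in HCC827. It was -0.26 for the combination in A375, -0.39 for 6-thio-dG alone in A375 and 0.22 for 6-thio-dG alone in HCC827. Over the 41 genes rho was 0.85 for the combination in HCC827, -0.16 for the combination in A375, -0.26 for 6-thio-dG alone in A375 and 0.27 for 6-thio-dG alone in HCC827. GC content of these transcripts ran from 33.1% in DNAJB4 to 64.5% in HSPB1. With the trend over all genes removed, the combination in HCC827 left 2 rises and 0 falls, where 3.73% of all genes rose and 2.6% fell. By the z test on implied errors, 10 of the 41 rose and 1 fell at an unadjusted p under 0.05, where 1226 of the 11514 genes rose and 984 fell. The 2 rises kept after adjustment were HSPB8 at 0.46 and CLU at 0.65. Removal of the trend left 34 rises and 2 falls for the combination in A375, where 29.4% of all genes rose and 30.2% fell. It left 6 rises and 23 falls for 6-thio-dG alone in A375, where 28.7% of all genes rose and 32.1% fell, and 25 rises and 1 fall for 6-thio-dG alone in HCC827, where 13.2% rose and 14.3% fell. What ties fold change to GC content was not tested.

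**Figure D3:**
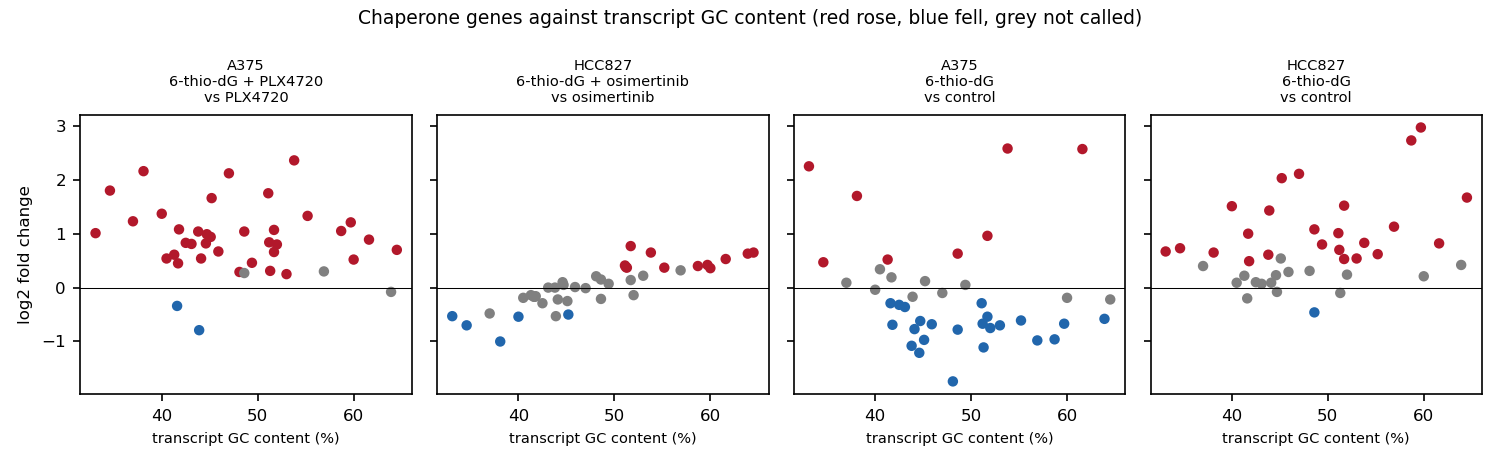
Log2 fold change of each of the 41 genes against the GC content of its longest coding transcript (%), 1 panel per comparison. Red points rose, blue points fell and grey points were not called. In the second panel, the combination in HCC827, points climb with GC content (rho of 0.85).

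Neither transcription factor passed the test in more than 2 comparisons. HSF1, the main activator of the heat shock genes, stood at -0.08 ± 0.15 with the combination in A375, 0.63 ± 0.15 with the combination in HCC827, -0.58 ± 0.17 with 6-thio-dG alone in A375 and 0.42 ± 0.19 with 6-thio-dG alone in HCC827, per the authors' deposited table. By the authors' adjusted p it rose with the combination in HCC827 (adjusted p = 0.000284) and fell with 6-thio-dG alone in A375 (adjusted p = 0.00132). Neither call was kept with the GC trend removed, and the value with the combination in A375 became a rise of 0.36. HSF2, a related factor, rose in the authors' deposited table with the combination in A375 (0.54 ± 0.21, adjusted p = 0.0246), a call lost with the GC trend removed (0.26). It stood at -0.19 ± 0.27 with the combination in HCC827, 0.34 ± 0.18 with 6-thio-dG alone in A375 and 0.09 ± 0.24 with 6-thio-dG alone in HCC827, and passed none of these.

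Among the 8 HSP70 genes, 7 rose and 1 fell with the combination in A375, 2 rose and 2 fell with the combination in HCC827, 1 rose and 4 fell with 6-thio-dG alone in A375, and 6 rose and 0 fell with 6-thio-dG alone in HCC827. HSPA1A, the inducible HSP70, is on chromosome 6 at 31815464 to 31817946 in GRCh38 (GENCODE 29). Its log2 fold changes in the authors' deposited table were 1.21 ± 0.14 with the combination in A375, 0.42 ± 0.14 with the combination in HCC827, -0.67 ± 0.16 with 6-thio-dG alone in A375 and 2.97 ± 0.19 with 6-thio-dG alone in HCC827, and each passed the test. The rise in HCC827 with 6-thio-dG alone is 7.86-fold, for which the authors give an adjusted p of 2.85e-53. HSPA1B, its neighbour at 31827735 to 31830255, stood at 1.05 ± 0.14 with the combination in A375, 0.40 ± 0.13 with the combination in HCC827, -0.96 ± 0.16 with 6-thio-dG alone in A375 and 2.73 ± 0.18 with 6-thio-dG alone in HCC827, again past the test each time. The 2 transcripts were identical in 98.6% of 2152 aligned bases, so the split of reads between them is uncertain. With the GC trend removed, the fall of HSPA1A in A375 was no longer called (-0.24), that of HSPA1B was (-0.55), and neither rise under the combination in HCC827 was.

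HSPA8, the constitutive HSP70 that takes part in clathrin uncoating and in autophagy as well as folding, rose to about the same extent in 2 comparisons of the authors' deposited table. By the authors' values it stood at 2.12 ± 0.11 (adjusted p = 9.22e-82) with the combination in A375 and 2.11 ± 0.20 (adjusted p = 9.1e-23) with 6-thio-dG alone in HCC827. The values with the combination in HCC827 (-0.01 ± 0.14, 95% interval -0.29 to 0.27) and with 6-thio-dG alone in A375 (-0.10 ± 0.10, interval -0.30 to 0.11) did not pass. GENCODE names 17 pseudogenes after HSPA8, so its reads may be split. HSPH1, an exchange factor of the HSP110 type, also rose with the combination in A375 (1.37 ± 0.13) and with 6-thio-dG alone in HCC827 (1.51 ± 0.19). It fell with the combination in HCC827 (-0.54 ± 0.16), a call lost with the GC trend removed (-0.02), and stood at -0.04 ± 0.15 with 6-thio-dG alone in A375, which the removal turned into a fall of -0.61.

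The remaining HSP70 genes did not move as one. HSPA4L, another HSP110-type gene, stood in the authors' deposited table at 2.16 ± 0.38 with the combination in A375, 1.70 ± 0.26 with 6-thio-dG alone in A375 and 0.65 ± 0.24 with 6-thio-dG alone in HCC827, each a rise. It fell 1.99-fold with the combination in HCC827, with a 95% interval of -1.43 to -0.56 on the log2 scale, and that call was not kept with the GC trend removed (-0.37). HSPA2, best known from male germ cells, was the 1 HSP70 gene that fell with the combination in A375 (-0.79 ± 0.19), and it rose with 6-thio-dG alone in HCC827 (1.43 ± 0.43). HSPA4 and the ribosome-associated HSPA14 rose with the combination in A375 (0.83 ± 0.10 and 0.94 ± 0.24) and fell there with 6-thio-dG alone (-0.32 ± 0.12 and -0.97 ± 0.17), and passed no test in HCC827.

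The 2 cytosolic HSP90 genes parted from each other. HSP90AA1, the inducible form on chromosome 14 at 102080738 to 102139699, rose in the authors' deposited table with the combination in A375 (1.66 ± 0.13, adjusted p = 3.01e-34) and with 6-thio-dG alone in HCC827 (2.03 ± 0.16, adjusted p = 3.53e-33). It fell with the combination in HCC827 (-0.50 ± 0.12, the authors' adjusted p = 0.00036), a call lost with the GC trend removed (-0.34), and stood at 0.12 ± 0.15 with 6-thio-dG alone in A375. HSP90AB1, the constitutive form on chromosome 6 at 44246166 to 44253888, fell 3.33-fold with 6-thio-dG alone in A375 (-1.74 ± 0.10, the authors' adjusted p = 7.63e-62). This was the lowest value among the 41 genes in that comparison. It rose slightly with the combination in A375 (0.29 ± 0.12, the authors' adjusted p = 0.0316), a call lost with the GC trend removed (0.19) or with values centred on the median of all genes (0.24), and did not pass in HCC827 (0.21 ± 0.13 with the combination and 0.31 ± 0.16 with 6-thio-dG alone).

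Small heat shock proteins hold unfolding proteins in a soluble state, and clusterin does so mostly outside the cell. HSPB8, the partner of BAG3 in chaperone-assisted autophagy, rose in all 4 comparisons of the authors' deposited table, at 2.36 ± 0.16 with the combination in A375, 0.65 ± 0.15 with the combination in HCC827, 2.58 ± 0.15 with 6-thio-dG alone in A375 and 0.83 ± 0.20 with 6-thio-dG alone in HCC827. CLU (clusterin) also rose in all 4, at 1.07 ± 0.18 with the combination in A375, 0.77 ± 0.15 with the combination in HCC827, 0.96 ± 0.16 with 6-thio-dG alone in A375 and 1.52 ± 0.29 with 6-thio-dG alone in HCC827. HSPB1 (HSP27) rose in 3, at 0.70 ± 0.15 with the combination in A375, 0.65 ± 0.14 with the combination in HCC827 and 1.67 ± 0.21 with 6-thio-dG alone in HCC827, and stood at -0.22 ± 0.17 with 6-thio-dG alone in A375. Its rise under the combination in HCC827 was not called with the GC trend removed (0.24). HSPB11, which despite its name is a subunit of the intraflagellar transport machinery, rose with the combination in A375 (0.80 ± 0.19) and fell there with 6-thio-dG alone (-0.75 ± 0.20).

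Of the 7 J-domain genes, 6 rose and 0 fell with the combination in A375, 1 rose and 1 fell with the combination in HCC827, 3 rose and 2 fell with 6-thio-dG alone in A375, and 5 rose and 1 fell with 6-thio-dG alone in HCC827. DNAJB2, a J-domain protein that also binds ubiquitin, was the third gene that rose in all 4 comparisons of the authors' deposited table, at 0.89 ± 0.13 with the combination in A375, 0.53 ± 0.13 with the combination in HCC827, 2.57 ± 0.15 with 6-thio-dG alone in A375 and 0.82 ± 0.19 with 6-thio-dG alone in HCC827. DNAJB4 stood at 1.01 ± 0.28 with the combination in A375, -0.53 ± 0.18 with the combination in HCC827, 2.25 ± 0.28 with 6-thio-dG alone in A375 and 0.67 ± 0.23 with 6-thio-dG alone in HCC827, all past the test. The call of DNAJB2 under the combination in HCC827 was lost with the GC trend removed, as were those of DNAJB4 under either combination.

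DNAJB1 (HSP40), the main J-domain partner of inducible HSP70, rose with the combination in A375 (0.25 ± 0.11, adjusted p = 0.0392) and with 6-thio-dG alone in HCC827 (0.54 ± 0.16, adjusted p = 0.00681), and fell with 6-thio-dG alone in A375 (-0.70 ± 0.11, adjusted p = 1.76e-09), per the authors' deposited table. The rise in A375 was not called with values centred on the median of all genes (0.20). Its value with the combination in HCC827 was 0.22 ± 0.13. DNAJA1 rose with the combination in A375 (0.45 ± 0.09) and with 6-thio-dG alone in HCC827 (1.00 ± 0.16), and the first call was lost with the GC trend removed (0.20). Its other values, -0.17 ± 0.12 with the combination in HCC827 and 0.19 ± 0.12 with 6-thio-dG alone in A375, did not pass. DNAJB6, which keeps aggregation-prone proteins soluble, rose with the combination in A375 (0.46 ± 0.11) and with 6-thio-dG alone in HCC827 (0.80 ± 0.16). DNAJA2 rose in A375 with the combination (0.61 ± 0.12) and with 6-thio-dG alone (0.52 ± 0.13), and the second call was lost with the GC trend removed (0.09). In HCC827 it stood at -0.14 ± 0.13 with the combination and 0.22 ± 0.16 with 6-thio-dG alone. DNAJC7, a J-domain co-chaperone with repeats that bind HSP90, rose nowhere and fell with 6-thio-dG alone in A375 (-0.78 ± 0.13) and in HCC827 (-0.46 ± 0.18).

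BAG proteins release the bound protein from HSP70. BAG3, which links HSP70 to autophagy and is a textbook HSF1 target, moved oppositely in the 2 lines under 6-thio-dG alone in the authors' deposited table: it fell in A375 (-0.98 ± 0.15, adjusted p = 1.14e-10) and rose in HCC827 (1.13 ± 0.20, adjusted p = 3.15e-07). With the combination the authors' table has it at 0.30 ± 0.15 in A375 (adjusted p = 0.0842) and 0.32 ± 0.15 in HCC827 (adjusted p = 0.0833). The value in A375 passed once the GC trend was removed (0.47). BAG1, an exchange factor named for binding BCL2, rose with the combination in A375 (1.04 ± 0.12) and with 6-thio-dG alone in A375 (0.63 ± 0.12) and HCC827 (1.08 ± 0.18). BAG2, an inhibitor of the ubiquitin ligase CHIP, rose with the combination in A375 (1.23 ± 0.18) and stood uncalled in HCC827 at -0.48 ± 0.20 with the combination and 0.40 ± 0.19 with 6-thio-dG alone. Its value with 6-thio-dG alone in A375 was 0.09 ± 0.17 and became a fall of -0.81 with the GC trend removed. The same removal made the value with 6-thio-dG alone in HCC827 a called rise of 0.56.

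Co-chaperones of HSP90 and HSP70 counted 6 rises and 1 fall of 7 with the combination in A375, 3 rises and 1 fall with the combination in HCC827, 1 rise and 5 falls with 6-thio-dG alone in A375, and 5 rises and 0 falls with 6-thio-dG alone in HCC827. In the authors' deposited table FKBP4 (FKBP52), an immunophilin of steroid receptor complexes, stood at 1.75 ± 0.14 with the combination in A375, 0.41 ± 0.13 with the combination in HCC827, -0.29 ± 0.11 with 6-thio-dG alone in A375 and 1.01 ± 0.16 with 6-thio-dG alone in HCC827, all past the test. STIP1 (HOP), which joins HSP70 to HSP90, stood at 1.33 ± 0.13 with the combination in A375, 0.37 ± 0.13 with the combination in HCC827, -0.61 ± 0.10 with 6-thio-dG alone in A375 and 0.62 ± 0.17 with 6-thio-dG alone in HCC827, all past the test. These genes shared the signs of HSPA1A. With the GC trend removed, neither was called under the combination in HCC827, and the fall of FKBP4 in A375 was lost (-0.09).

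PTGES3 (p23), which with HSP90 takes part in assembling active telomerase, rose with the combination in A375 (1.08 ± 0.10, adjusted p = 7.44e-24) and with 6-thio-dG alone in HCC827 (0.49 ± 0.16, adjusted p = 0.0129) in the authors' deposited table. It fell with 6-thio-dG alone in A375 (-0.69 ± 0.10, the authors' adjusted p = 1.72e-10) and stood at -0.16 ± 0.12 with the combination in HCC827. AHSA1, the activator of the HSP90 ATPase, had the same calls: it rose with the combination in A375 (0.66 ± 0.11) and with 6-thio-dG alone in HCC827 (0.53 ± 0.18) and fell with 6-thio-dG alone in A375 (-0.54 ± 0.12). CDC37, which brings kinases such as BRAF to HSP90, rose with the combination in A375 (0.52 ± 0.12) and in HCC827 (0.36 ± 0.12), a call that in HCC827 was lost with the GC trend removed (0.03). CHORDC1 stood at 1.80 ± 0.16 with the combination in A375, -0.70 ± 0.18 with the combination in HCC827, 0.47 ± 0.18 with 6-thio-dG alone in A375 and 0.73 ± 0.18 with 6-thio-dG alone in HCC827. All 4 passed, but with the GC trend removed the HCC827 combination value was 0.09 and the A375 value for 6-thio-dG alone became a fall of -0.69. ST13 (HIP), which stabilises HSP70 bound to its client, rose nowhere and fell with the combination in A375 (-0.34 ± 0.10) and with 6-thio-dG alone there (-0.29 ± 0.11). GENCODE names 16 pseudogenes after ST13.

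The 8 TRiC subunits, whose genes lie on 7 chromosomes, moved together in A375. All 8 rose with the combination, at 0.31 to 1.04 (median 0.82), and all 8 fell with 6-thio-dG alone, at -1.21 to -0.36 (median -0.73). TCP1 (subunit alpha) stood in the authors' deposited table at 1.04 ± 0.13 with the combination and -1.08 ± 0.11 with 6-thio-dG alone. CCT5 (epsilon) stood at 0.82 ± 0.11 with the combination and -1.21 ± 0.11 with 6-thio-dG alone. CCT7 (eta) stood at 0.31 ± 0.13 with the combination and -1.11 ± 0.11 with 6-thio-dG alone. The weakest rise by the authors' test was that of CCT7 (adjusted p = 0.0329), and the weakest fall that of CCT8 (theta), at -0.36 ± 0.11 (adjusted p = 0.00346). CCT8 rose by 0.81 ± 0.10 with the combination.

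The other 4 subunits gave middle values in A375. With the combination, CCT2 (beta) stood at 0.67 ± 0.11, CCT3 (gamma) at 0.84 ± 0.13, CCT4 (delta) at 0.99 ± 0.10 and CCT6A (zeta) at 0.54 ± 0.09, per the authors' deposited table. With 6-thio-dG alone, CCT2 stood at -0.68 ± 0.11, CCT3 at -0.67 ± 0.11, CCT4 at -0.62 ± 0.10 and CCT6A at -0.77 ± 0.11. In A375 all 8 rises and all 8 falls were kept with the GC trend removed. The rise of CCT7 was not called with values centred on the median of all genes (0.26).

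In HCC827 most TRiC subunits were not called. With the combination, 2 of 8 subunits rose in the authors' deposited table, CCT3 (0.38 ± 0.13, adjusted p = 0.0131) and CCT7 (0.37 ± 0.13, adjusted p = 0.0141). Both calls were lost with the GC trend removed, where 0 of 8 passed. All 8 values were then above 0, from 0.02 (CCT6A) to 0.31 (CCT5). Of these, 6 had an unadjusted p under 0.05 by the z test, where 1226 of 11514 genes rose and 984 fell. In the authors' values the other 6 were not called, with TCP1 at -0.0021 ± 0.12, CCT2 at 0.01 ± 0.12, CCT4 at 0.05 ± 0.12, CCT5 at 0.10 ± 0.12, CCT6A at -0.22 ± 0.11 and CCT8 at -0.0043 ± 0.12. With 6-thio-dG alone, 2 of 8 rose, TCP1 (0.61 ± 0.17, the authors' adjusted p = 0.0031) and CCT3 (0.70 ± 0.17, adjusted p = 0.000527), and the other 6 were not called, with CCT2 at 0.29 ± 0.16, CCT4 at -0.08 ± 0.16, CCT5 at 0.23 ± 0.16, CCT6A at 0.09 ± 0.15, CCT7 at -0.10 ± 0.17 and CCT8 at 0.07 ± 0.16. For CCT5 the 95% intervals were -0.13 to 0.33 with the combination and -0.08 to 0.54 with 6-thio-dG alone, and for CCT8 they were -0.24 to 0.23 with the combination and -0.25 to 0.38 with 6-thio-dG alone.

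**Figure D4:**
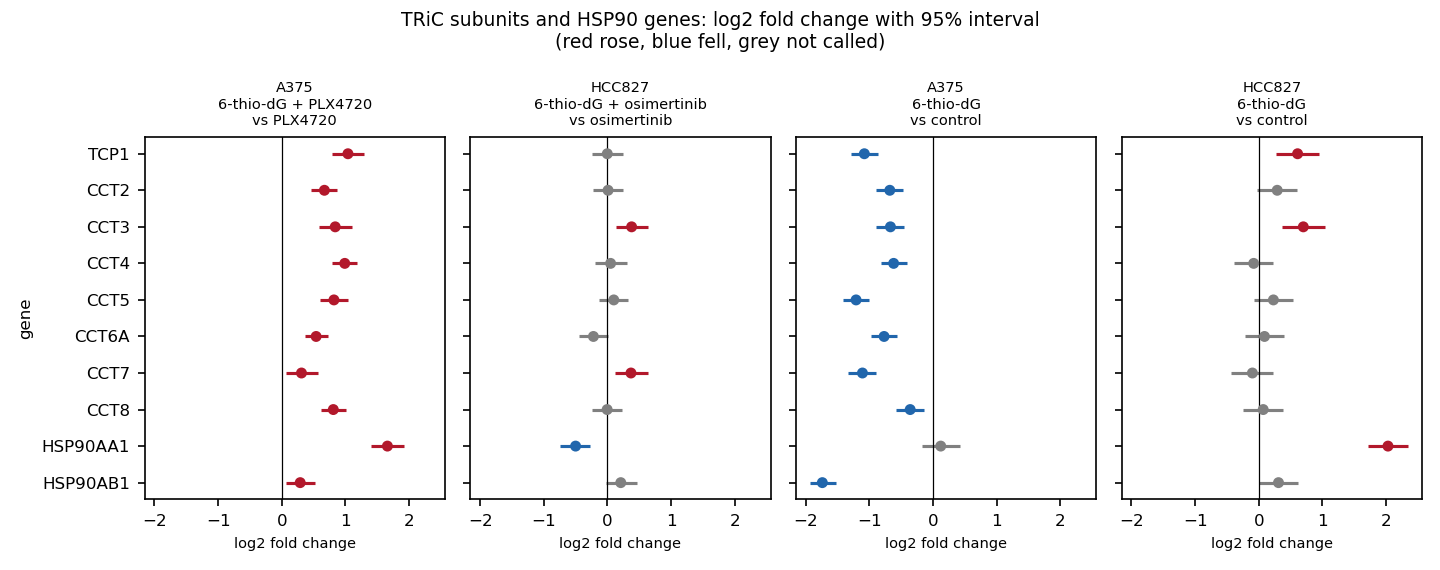
Log2 fold change with its 95% interval for the 8 TRiC subunits and the 2 HSP90 genes, 1 panel per comparison. Red rose, blue fell, grey was not called. In A375 every TRiC subunit lies right of 0 with the combination and left of 0 with 6-thio-dG alone.

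Genes that work beside these chaperones were counted from 5 further lists. Of all genes, 31.2% rose and 29.3% fell with the combination in A375, and 17.3% and 17.9% with the combination in HCC827. With 6-thio-dG alone, 31.3% rose and 33.7% fell in A375, and 14.8% and 14.4% in HCC827. With the GC trend removed these shares were 29.4% and 30.2%, 3.73% and 2.6%, 28.7% and 32.1%, and 13.2% and 14.3%, in that order. Of 18 proteins that TRiC is known to fold, 8 rose and 6 fell with the combination in A375, 10 rose and 0 fell with the combination in HCC827, 0 rose and 16 fell with 6-thio-dG alone in A375, and 11 rose and 0 fell with 6-thio-dG alone in HCC827. With the GC trend removed, 10 rose and 3 fell with the combination in A375, 1 rose and 0 fell with the combination in HCC827, 0 rose and 12 fell with 6-thio-dG alone in A375, and 8 rose and 0 fell with 6-thio-dG alone in HCC827. In the authors' deposited table the mitotic activator CDC20 stood at -4.46 ± 0.13 and the tubulins TUBB and TUBA1B at -2.62 ± 0.12 and -2.58 ± 0.13 with 6-thio-dG alone in A375. CDC20 stood at 1.19 ± 0.17 and TUBB3 at 1.44 ± 0.17 with 6-thio-dG alone in HCC827. With the combination in A375, TUBA1A stood at -2.24 ± 0.12, against 1.26 ± 0.14 for TUBA1C and 1.18 ± 0.14 for the actin ACTG1. CDC20 and several tubulins also vary with cell division, whose part in these counts was not tested.

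Prefoldin and phosducin-like proteins, which hand proteins to TRiC, were counted alongside. Of 9, 7 rose and 0 fell with the combination in A375, 1 rose and 2 fell with the combination in HCC827, 5 rose and 1 fell with 6-thio-dG alone in A375, and 1 rose and 1 fell with 6-thio-dG alone in HCC827. PFDN2 and PFDN6 stood at 1.68 ± 0.11 and 1.39 ± 0.11 with the combination in A375, and PFDN6 and TXNDC9 at 0.88 ± 0.13 and 0.96 ± 0.19 with 6-thio-dG alone in A375, per the authors' deposited table.

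Of 15 other HSP90 co-chaperones, 9 rose and 3 fell with the combination in A375, 7 rose and 2 fell with the combination in HCC827, 3 rose and 8 fell with 6-thio-dG alone in A375, and 1 rose and 0 fell with 6-thio-dG alone in HCC827. SUGT1 rose by 1.50 ± 0.13 and the ubiquitin ligase STUB1 (CHIP) stood at -1.47 ± 0.10 with the combination in A375, and FKBP5 stood at -2.15 ± 0.18 with 6-thio-dG alone in A375, per the authors' deposited table. Other J-domain proteins and exchange factors, 14 of 19 listed, were mixed: 6 rose and 4 fell with the combination in A375, 3 rose and 5 fell with the combination in HCC827, 5 rose and 6 fell with 6-thio-dG alone in A375, and 1 rose and 3 fell with 6-thio-dG alone in HCC827. In that order, 42.9%, 21.4%, 35.7% and 7.14% of the 14 rose, against 31.2%, 17.3%, 31.3% and 14.8% of all genes. Falls made up 28.6%, 35.7%, 42.9% and 21.4%, against 29.3%, 17.9%, 33.7% and 14.4%. Other HSF1 targets, 13 of 15 listed, rose in 10 cases and fell in 1 with the combination in A375, against 2 rises and 1 fall with the combination in HCC827, 6 and 5 with 6-thio-dG alone in A375, and 4 and 2 with 6-thio-dG alone in HCC827. With the GC trend removed, the combination in HCC827 left 0 rises and 0 falls among the prefoldin genes (0 and 0 at an unadjusted p under 0.05), the other HSP90 co-chaperones (1 and 0) and the other HSF1 targets (2 and 0), and 1 rise and 0 falls among the other J-domain proteins and exchange factors. By the unadjusted rule, 1226 of 11514 genes rose and 984 fell with the combination in HCC827. For 6-thio-dG alone in A375 removal of the trend left 3 rises and 2 falls among the prefoldin genes, 3 and 5 among the other J-domain proteins and exchange factors, and 7 and 3 among the other HSF1 targets. For 6-thio-dG alone in HCC827 it left 2 rises and 1 fall among the prefoldin genes and 2 and 0 among the other HSP90 co-chaperones. The HSF1 targets with the smallest p-values in A375 under the combination were SQSTM1 (2.74 ± 0.12), TXNRD1 (2.08 ± 0.11) and HMOX1 (2.66 ± 0.15), which are also known targets of the oxidative stress factor NRF2.

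Differences between comparisons were tested directly, with the implied standard errors and adjustment over all genes with both values. No library was taken to enter more than 1 comparison. With the combination, the change was higher in A375 than in HCC827 for 29 of the 41 genes and lower for 1 (HSF1, a difference of -0.71 that became 0.14 with the GC trend removed). Over all genes 28.9% were higher and 27.5% lower. With the GC trend removed, the change was higher in A375 for 24 genes and lower for 1, ST13 (-0.84). Of all genes, 19.3% were then higher and 24.4% lower. The smallest adjusted p-values belonged to HSP90AA1, HSPA8, CHORDC1, HSPH1 and HSPB8, with differences of 2.16, 2.13, 2.50, 1.91 and 1.71. Removing the GC trend gave 1.85, 1.93, 1.23, 1.11 and 1.96 for these genes in that order, all still called, so that CHORDC1 and HSPH1 moved the most. For HSP90AA1 the 95% interval of the difference was 1.81 to 2.52. The difference was higher for 7 of 8 TRiC subunits, the exception being CCT7 (-0.06, interval -0.42 to 0.30). The calls of CCT5 (0.34) and CCT8 (0.30) were lost with the GC trend removed.

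With 6-thio-dG alone the order of the lines was the other way round. The change was higher in A375 than in HCC827 for 4 genes and lower for 26, where 26.2% of all genes were higher and 28.9% lower. The 4 were HSPB8, DNAJB2, DNAJB4 and HSPA4L, with differences of 1.75, 1.75, 1.58 and 1.04. Once the GC trend was removed, DNAJB4 (0.93 in A375 and 0.85 in HCC827, a difference of 0.09) and HSPA4L (0.91 in A375 and 0.80 in HCC827, a difference of 0.11) were no longer called. The smallest adjusted p-values belonged to HSPA1B, HSPA1A, HSP90AB1, HSPA8 and BAG3, with differences of -3.69, -3.64, -2.04, -2.21 and -2.10. For HSPA1A the interval was -4.12 to -3.16. Of the TRiC subunits 7 were lower in A375, and CCT8 missed the adjusted threshold (-0.43, interval -0.81 to -0.04). With the GC trend removed, CCT8 was called too (-0.75, interval -1.13 to -0.36). The change was then higher in A375 for 2 genes and lower for 30, where 22.5% of all genes were higher and 24.9% lower.

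Within A375, the change with the combination was higher than with 6-thio-dG alone for 30 genes and lower for 2, DNAJB2 (-1.69) and DNAJB4 (-1.24), where 28.5% of all genes were higher and 24.1% lower. The call of DNAJB4 was lost with the GC trend removed, at 0.46 with the combination and 0.93 with 6-thio-dG alone, a difference of -0.47. All 8 TRiC subunits were among the 30, with differences of 1.17 to 2.12. HSPA8, CCT5, HSP90AB1, TCP1 and PTGES3 had the smallest adjusted p-values, with differences of 2.22, 2.03, 2.03, 2.12 and 1.77. Within HCC827, the change with the combination was higher than with 6-thio-dG alone for 0 genes and lower for 18, where 10.8% of all genes were higher and 11.4% lower. At an unadjusted p under 0.05 of the z test the counts were 1 and 19, and all genes were not counted by that rule. HSP90AA1, HSPA1A, HSPA1B, HSPA8 and HSPH1 led, with differences of -2.54, -2.55, -2.33, -2.12 and -2.04. Of the TRiC subunits only TCP1 was lower (-0.61, interval -1.02 to -0.20), and its call was lost with the GC trend removed (-0.43). With that trend removed, the change within HCC827 was higher for 0 genes and lower for 14. Of all genes, 9.76% were then higher and 7.79% lower.

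**Figure D5:**
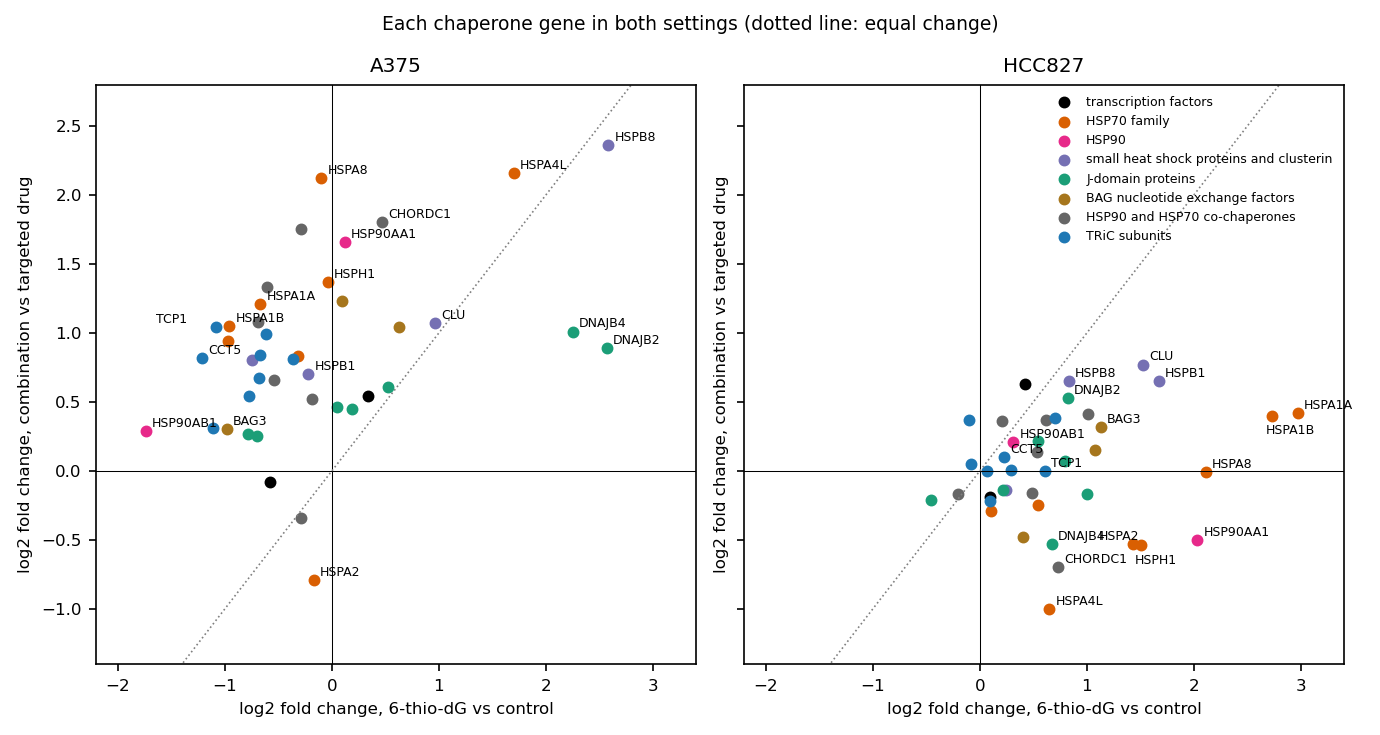
Log2 fold change with the combination against the targeted drug (vertical axis) and with 6-thio-dG against control (horizontal axis) for each gene in A375 (left) and HCC827 (right), coloured by role. Most genes lie above the dotted line of equal change in A375 (30 called) and below it in HCC827 (18 called).

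Read gene by gene, 22 of the 41 (53.7%) rose both with the combination in A375 and with 6-thio-dG alone in HCC827, against 5.74% of all genes. A rise with the combination and a fall with 6-thio-dG alone within A375 was found for 19 (46.3%), against 5.7% of all genes. A fall with 6-thio-dG alone in A375 and a rise with it in HCC827 was found for 10 (24.4%), against 6.95%. HSPB8, CLU and DNAJB2 were the 3 that rose in all 4 comparisons (7.32%, against 0.313% of all genes), and each of the 41 was called in at least 1 comparison, where 8.31% of all genes were called in none. With the GC trend removed, DNAJB2 was no longer called with the combination in HCC827 (0.17).

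Set beside the promoters, the 11 genes with a 2-unit element counted 11 rises with the combination in A375, 4 rises and 1 fall with the combination in HCC827, 2 rises and 4 falls with 6-thio-dG alone in A375, and 9 rises with 6-thio-dG alone in HCC827. The 23 genes whose promoter held no such match counted 20 rises and 1 fall with the combination in A375, 5 rises and 4 falls with the combination in HCC827, 5 rises and 13 falls with 6-thio-dG alone in A375, and 13 rises and 1 fall with 6-thio-dG alone in HCC827. In that order, 31.2%, 17.3%, 31.3% and 14.8% of all genes rose and 29.3%, 17.9%, 33.7% and 14.4% fell. After removal of the GC trend, the combination in HCC827 left 1 rise (HSPB8) and 0 falls among genes with a match and 0 rises and 0 falls among those without, and 6-thio-dG alone in A375 left 1 rise and 5 falls with a match and 4 rises and 14 falls without. With the combination, median log2 fold changes were 1.05 with a match and 0.81 without in A375, and 0.05 and 0.01 in HCC827. With 6-thio-dG alone they were -0.10 with a match and -0.36 without in A375, and 0.83 and 0.53 in HCC827. HSPA1A and HSPA1B, whose transcripts are nearly identical, both count among the 11. HSP90AA1, HSPH1, DNAJB1 and BAG3 had no match in their window, which says only that these letters are not in those 300 bases. Only 1 start per gene was used, and other starts of a gene were not read. For CCT5, the window (10250287 to 10250586) lay inside the bounds that GENCODE gives the gene (10249921 to 10266412). The windows of HSPA2, HSPA8, HSPB8, DNAJB1, DNAJB6, DNAJC7, CDC37, CHORDC1, CCT3 and CCT7 also lay inside the bounds of their genes.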

How the data were processed

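Messenger RNA was selected by poly-T binding and sequenced from 36 libraries, of which 16 belong to the mechanism experiment. The other 20, a time course, were not analysed here. The submitters' processing notes name FastQC, Trimmomatic and STAR with hg38. How reads were counted and tested, and with which annotation, versions or filters, is not given in the sources used here. Per the file headers, the authors deposited log2 fold changes, p-values and adjusted p-values for 4 comparisons of 11828 genes. The header's "TKI1" was taken for the arm with the targeted drug and its "RNA" for the control, which it does not state. Nor does it state whether "TKI1" is 1 library or the group of 2. The planned fits per library could not be made, so the authors' tests are the main result. Depth is unknown.

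Each p-value was read as a two-sided normal z, and the implied standard error is the fold change over z. A two-sided z test with the summed squared errors served for differences between comparisons, adjusted by Benjamini-Hochberg over all genes with both values, and the steps were tested on simulated data. A lowess fit (fraction 0.3) on GC content of GENCODE 29 transcripts was subtracted to take out the GC trend (Python 3.11.15, scipy 1.17.1, statsmodels 0.14.6). Promoters are from RefSeq GRCh38.p14. A planned comparison of proteins was not made. Also tried were adjusted p under 0.01, a 2-fold minimum, adjustment over the table, centring on the median of all genes, and a t distribution with 4 degrees of freedom for p.

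All 41 genes are accounted for. Values in all 4 comparisons are given for TRiC, HSP90, HSF1, HSPA1A, HSPA1B, HSPA8, HSPH1, DNAJB1, BAG3 and the called gene with the largest change of each role and comparison. Other lists name up to 3 genes with the smallest p, and differences name 5. Names beyond this were chosen after their values were seen. The genes and lists were chosen with earlier results of these data known.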

Additional observations from a re-analysis of the deposited data

Results flagged for a closer look

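Some genes responded differently in the 2 lines, with the difference itself tested (two-sided z test on implied standard errors, Benjamini-Hochberg adjusted over all genes). With the combination against the targeted drug, the log2 fold change in A375 exceeded that in HCC827 by 2.16 for HSP90AA1, 2.13 for HSPA8, 2.50 for CHORDC1, 1.91 for HSPH1 and 1.71 for HSPB8. Removing the GC trend gave differences of 1.85 for HSP90AA1, 1.93 for HSPA8, 1.23 for CHORDC1, 1.11 for HSPH1 and 1.96 for HSPB8, so CHORDC1 was no longer the largest of these 5. With 6-thio-dG against control, A375 minus HCC827 was -3.69 for HSPA1B, -3.64 for HSPA1A, -2.04 for HSP90AB1, -2.21 for HSPA8 and -2.10 for BAG3. HSPA8 is in both sets with opposite signs. Line, tumour type and targeted drug cannot be told apart in the combination comparisons, and line and tumour type cannot in the others.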

How the results depend on the processing

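No paired analysis was possible because the table holds 0 columns of values per library, and leaving out each replicate was not run for the same reason. Each of 164 pairs of gene and comparison was counted as risen, fallen or not called. The outcome stayed the same for 163 pairs with adjustment over the table, 161 with centring on the median and 145 at an adjusted p under 0.01. It stayed the same for 135 with GC removal and 89 with a 2-fold minimum. Pairs called under neither rule are among these, so they are not counts of kept calls. With the 2-fold minimum, there were 16 rises and 0 falls under the combination in A375, 0 and 0 under it in HCC827, 4 and 4 for 6-thio-dG alone in A375, and 12 and 0 for 6-thio-dG alone in HCC827. Of all genes, 11.8% rose and 15.2% fell by that rule under the combination in A375, 0.161% and 2.15% under it in HCC827, 15.8% and 15.2% for 6-thio-dG alone in A375, and 4.08% and 4.36% for 6-thio-dG alone in HCC827. By that rule, falls for 6-thio-dG alone in A375 were not more frequent among the 41 genes than among all genes, and neither were rises. At an adjusted p under 0.01, the combination in HCC827 had 7 rises (10.3% of all genes) and 6-thio-dG alone in HCC827 had 0 falls (9.3% of all genes). With the GC trend removed, the combination in HCC827 had 2 rises and 0 falls, and its medians became 0.16 over all 41 genes, 0.02 over the HSP70 genes and 0.17 over the J-domain genes. Among values called with or without the GC trend, signs turned for HSF1 with the combination in A375 (0.36), for DNAJB4 (0.33) and CHORDC1 (0.09) with the combination in HCC827, and with 6-thio-dG alone in A375 for BAG2 (-0.81), CHORDC1 (-0.69) and the median of the BAG genes (-0.59). Among values called in neither, signs turned for 11 genes with the combination in HCC827 and 4 with 6-thio-dG alone in A375. Of the differences, those between lines with the combination turned for HSF1 (0.14) and DNAJA1 (-0.02), and with 6-thio-dG alone 2 genes were higher in A375, DNAJB4 (0.09) and HSPA4L (0.11) having lost their calls. Within A375, 1 gene was lower with the combination than with 6-thio-dG alone with the GC trend removed, and 4 with p read as a t test; the call lost with the GC trend removed was that of DNAJB4 (-0.47). In the promoters, 4 genes held the 3-unit element. The cause of these shifts was not tested.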
